A study of Mus musculus with 2 samples.

Results

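Open chromatin around 8 genes that build the gonad or direct it to become a testis was compared between the nuclei types of the fetal mouse testis at E14.5. A peak was a member when its midpoint lay within 750 kb of the start of Sox9, Dmrt1, Wt1, Gata4, Fgf9, Lhx9, Emx2 or Cbx2, the start being the lowest annotated transcript start of the gene. This rule used position alone and gave 779 of the 109215 peaks of the series. Of these, 79 lay around Sox9, 86 around Dmrt1, 90 around Wt1, 116 around Gata4, 80 around Fgf9, 89 around Lhx9, 102 around Emx2 and 137 around Cbx2.

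The nuclei came from whole frozen E14.5 testes of embryos from a cross of homozygous Nr5a1-cre with homozygous Rosa-tdTomato mice, in which Nr5a1 regulatory sequence drives Cre in gonadal somatic cells and a fluorescent reporter marks the cells with Cre activity. There was no second genotype, and neither the labels nor the methods state the number of embryos in the pool. RNA and open chromatin were read from the same nuclei in 1 RNA library and 1 ATAC library, a tagmentation assay in which a transposase cuts accessible DNA, and all 9833 barcodes carried both readouts. With 1 library per assay no difference between nuclei types was tested, and each interval below is an exact 95% interval that covers counting error only.

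The 8 genes act at successive steps of gonad formation. Gata4, Lhx9, Emx2, Wt1 and Cbx2 are needed for the genital ridge to form or for the male pathway to start in it, Sox9 is the transcription factor that turns supporting cell precursors into Sertoli cells, Fgf9 is a secreted growth factor that sustains Sox9, and Dmrt1 keeps Sertoli cells male and also acts in germ cells. Much of the regulation of such genes comes from distal elements that are open in particular cell types, and Sox9 in particular lies in a gene-poor region with enhancers far from its promoter.

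Nuclei were grouped from RNA alone, with the 153 genes of the 8 windows kept out of the grouping, so that neither the peaks nor the RNA of the loci made the groups. Of 7198 nuclei kept, 834 were Sertoli-like, 564 surface epithelium-like, 3366 interstitial-like and 976 germ-like, and these are called the 4 large classes. The Leydig-like class, with 778 nuclei, was kept outside them although it was larger than the surface epithelium-like class. A lead below is therefore over the other large classes only and does not cover Leydig-like nuclei. A cluster of 83 nuclei had Pax8 and Aldh1a3, both markers of supporting-like cells, which contribute to the rete testis, among its 10 leading genes. Its RNA matched a mesonephric tubule list better than the supporting-like list (mean z-scores 2.45 and 1.20), although the supporting-like list summed to 1055 CPM (counts per 1000000 UMIs, or counted RNA molecules, of the class) against 104 CPM for the tubule list and Pcp4 was at 0. It is therefore called the Pax8 cluster here. Sertoli markers summed to 764 CPM in the Sertoli-like class and to 116 to 153 CPM in the other 3 large classes, and germ cell markers to 1399 CPM in the germ-like class and to 37.3 to 41.2 CPM in the other 3. The lists of the surface epithelium-like and interstitial-like classes overlapped more. Interstitial progenitor markers summed to 2502 CPM in interstitial-like and 1555 CPM in surface epithelium-like nuclei, above the 1380 CPM of the surface epithelium list there, and to 449 CPM in Sertoli-like and 464 CPM in germ-like nuclei. Contractile markers, which were counted as interstitial, summed to 307 CPM in interstitial-like, 292 CPM in surface epithelium-like and 58.6 to 78.7 CPM in the other 2 large classes. At a cluster resolution of 0.6, 1101 nuclei named interstitial-like formed a cluster matched best by the contractile list, so that this class mixes progenitor and contractile nuclei. Nuclei over the automatic doublet threshold of Scrublet made up 23.9% of the germ-like, 16.1% of the Sertoli-like, 10.3% of the surface epithelium-like and 5.61% of the interstitial-like class. The part of mixed nuclei or free RNA in the values below was not tested.

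The level of a peak is the number of unique fragments with a cut site in it per 1000000 fragments at peaks of the class. Fragments at peaks numbered 6821892 in the interstitial-like, 2498814 in the germ-like, 1631559 in the Sertoli-like and 982993 in the surface epithelium-like class, and only 142917 in the Pax8 cluster. A peak was said to be led by a large class when its level there was at least 3 times the level in every other large class, with a minimum of 20 fragments over the 5 groups and any denominator below 3 fragments set to 3. Against the surface epithelium-like class, the shallowest of the 4, such a lead needs a level of at least 9.16. In the Pax8 cluster 3 fragments are worth a level of 21 and 376 of the 779 members had no fragment, so that its levels are given as values and a zero there is no sign of closed chromatin. Of the 779 members, 751 had 20 fragments.

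A choice of sequences of led members, for the contrasts given with each, is printed first, as the central 300 bases of the peak on the plus strand of mm10, read from the GRCm38 genome. Capitals mark matches, on either strand, to 6 short motifs: ACAAAG (SOX factors), ACAATG (also SOX factors), AGATAA (bound by zinc finger factors of the GATA family), CAAGGTCA (NR5A1), TACANTGT (DMRT1, where N is any base) and TAATTA (LIM homeobox factors). The DMRT1 forms with A or T overlap the second SOX motif. A match is a description of the letters and not evidence of binding.

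The first pair holds the peak of the Sox9 window with the highest Sertoli-like level, 67.9 kb downstream of the start, in which none of the 6 motifs was found, and the peak 11.5 kb upstream in an intron of BC006965, with 1 ACAATG and 1 CAAGGTCA match.
Sox9 67.9 kb downstream, chr11:112849966-112850265: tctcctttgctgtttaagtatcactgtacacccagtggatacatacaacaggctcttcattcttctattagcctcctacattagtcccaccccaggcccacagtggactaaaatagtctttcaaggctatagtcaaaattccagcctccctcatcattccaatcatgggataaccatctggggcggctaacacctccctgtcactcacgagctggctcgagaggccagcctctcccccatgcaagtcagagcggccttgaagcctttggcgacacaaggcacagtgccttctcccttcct
Sox9 11.5 kb upstream, chr11:112770531-112770830: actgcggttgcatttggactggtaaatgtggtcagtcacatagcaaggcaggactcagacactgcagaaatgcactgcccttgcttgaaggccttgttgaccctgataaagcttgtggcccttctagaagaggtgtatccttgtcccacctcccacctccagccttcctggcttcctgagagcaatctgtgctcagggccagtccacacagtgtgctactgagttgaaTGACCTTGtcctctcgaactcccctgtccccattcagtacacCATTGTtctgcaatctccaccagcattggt
Near Dmrt1 a Sertoli-led peak and a germ-led peak lay 8.1 and 16.8 kb upstream of the same start, and they are shown together because of that contrast.
Dmrt1 8.1 kb upstream, led by Sertoli-like nuclei, chr19:25497352-25497651: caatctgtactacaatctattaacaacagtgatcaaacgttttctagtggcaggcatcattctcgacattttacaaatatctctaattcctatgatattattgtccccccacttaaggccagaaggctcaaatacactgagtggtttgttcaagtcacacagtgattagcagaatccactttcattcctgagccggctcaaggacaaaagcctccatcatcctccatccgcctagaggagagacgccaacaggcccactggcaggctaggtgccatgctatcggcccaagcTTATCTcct
Dmrt1 16.8 kb upstream, led by germ-like nuclei, chr19:25488684-25488983: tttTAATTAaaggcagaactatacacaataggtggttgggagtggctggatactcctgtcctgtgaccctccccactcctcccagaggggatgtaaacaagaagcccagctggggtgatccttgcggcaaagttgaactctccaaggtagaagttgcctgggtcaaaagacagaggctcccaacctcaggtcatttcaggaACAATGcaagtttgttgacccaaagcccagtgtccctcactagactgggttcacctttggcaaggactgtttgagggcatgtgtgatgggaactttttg
Around Wt1 the Sertoli-led peak with the largest fold held 4 of the 6 motifs, of which ACAATG and the DMRT1 motif share the same bases. An epithelium-led peak in an intron of the antisense gene Wt1os held a GATA and a homeobox match.
Wt1 114.3 kb downstream, led by Sertoli-like nuclei, chr2:105240689-105240988: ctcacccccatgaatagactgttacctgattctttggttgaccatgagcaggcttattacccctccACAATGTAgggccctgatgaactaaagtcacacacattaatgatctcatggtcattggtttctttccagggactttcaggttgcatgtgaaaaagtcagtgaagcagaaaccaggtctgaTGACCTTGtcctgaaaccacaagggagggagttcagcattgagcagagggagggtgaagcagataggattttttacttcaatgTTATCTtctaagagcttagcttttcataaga
Wt1 28.9 kb upstream, led by surface epithelium-like nuclei, chr2:105097451-105097750: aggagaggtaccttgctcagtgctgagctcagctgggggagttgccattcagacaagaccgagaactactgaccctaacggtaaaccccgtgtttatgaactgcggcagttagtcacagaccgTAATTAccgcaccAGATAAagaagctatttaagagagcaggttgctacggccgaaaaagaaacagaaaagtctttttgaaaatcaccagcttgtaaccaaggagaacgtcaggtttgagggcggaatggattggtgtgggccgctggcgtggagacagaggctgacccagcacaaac
The last set gives the Sertoli-led peaks with the largest fold around Fgf9 and Cbx2 and the epithelium-led member with the largest fold, in an intron of Rab11fip2 in the Emx2 window.
Fgf9 527.4 kb downstream, chr14:58597787-58598086: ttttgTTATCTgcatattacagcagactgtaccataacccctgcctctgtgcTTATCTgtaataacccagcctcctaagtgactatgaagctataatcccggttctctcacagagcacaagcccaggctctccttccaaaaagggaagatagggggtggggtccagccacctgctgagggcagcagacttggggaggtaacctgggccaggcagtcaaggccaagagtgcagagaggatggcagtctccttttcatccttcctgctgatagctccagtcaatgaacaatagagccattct
Cbx2 37.3 kb upstream, chr11:118985551-118985850: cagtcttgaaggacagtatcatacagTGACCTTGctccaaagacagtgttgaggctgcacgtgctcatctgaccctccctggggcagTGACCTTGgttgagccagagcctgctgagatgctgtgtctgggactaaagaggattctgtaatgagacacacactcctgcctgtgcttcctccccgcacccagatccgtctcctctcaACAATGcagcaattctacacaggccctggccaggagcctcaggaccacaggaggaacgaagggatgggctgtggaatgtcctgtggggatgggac
Emx2 453.5 kb downstream, chr19:59911706-59912005: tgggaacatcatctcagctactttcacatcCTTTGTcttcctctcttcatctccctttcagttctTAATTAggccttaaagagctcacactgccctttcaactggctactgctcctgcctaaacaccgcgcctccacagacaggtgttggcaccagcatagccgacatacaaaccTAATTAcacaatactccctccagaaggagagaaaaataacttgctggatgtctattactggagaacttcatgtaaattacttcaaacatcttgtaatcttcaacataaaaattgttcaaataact

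Sertoli-like nuclei led more members than any other class. They led 42 of the 751 members with 20 fragments (5.59%), against 3.93% of the 103221 such peaks of the series. The Sox9 window (8 of 74, 10.8%) and the Fgf9 window (9 of 77, 11.7%) held the highest shares. The Lhx9 (2 of 88), Emx2 (2 of 97) and Gata4 (3 of 112) windows held shares below that of the series, but these counts are too small to tell from 3.93%. Differences between windows were not tested. Around Dmrt1 5 of 80, around Wt1 5 of 89 and around Cbx2 8 of 134 members were led by Sertoli-like nuclei.

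Surface epithelium-like nuclei led 20 members (2.66%), against 1.76% of all peaks. They led none of the 74 members around Sox9 or the 80 around Dmrt1 with 20 fragments, too few to tell 0 from 1.76%. The Emx2 window held 5, the Lhx9 window 4, the Wt1, Fgf9 and Cbx2 windows 3 each and the Gata4 window 2. Some leads were within counting error of the next class. The intervals reached below 1 at the epithelium-led peaks 394.9 kb upstream of Cbx2 (0.709 to 20.5) and 259.5 kb upstream of Lhx9 (0.972 to 14.2). So did that of the Sertoli-led peak 150.3 kb upstream of Lhx9 (0.852 to 16.2). Germ-like nuclei led 22 members (2.93%), a share next to the 2.87% of all peaks, with 5 around Gata4, 4 each around Wt1 and Cbx2, 2 each around Sox9, Fgf9, Lhx9 and Emx2 and 1 around Dmrt1. Interstitial-like nuclei led 6 members (0.799%), against 0.825% of all peaks, none of them around Sox9, Fgf9 or Lhx9. With 74, 77 and 88 members there that had 20 fragments, 0 cannot be told from that share. No member was led by the Pax8 cluster, and by the same rule with 10 fragments in the cluster only 0.00969% of all peaks were.

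**Figure D1:**
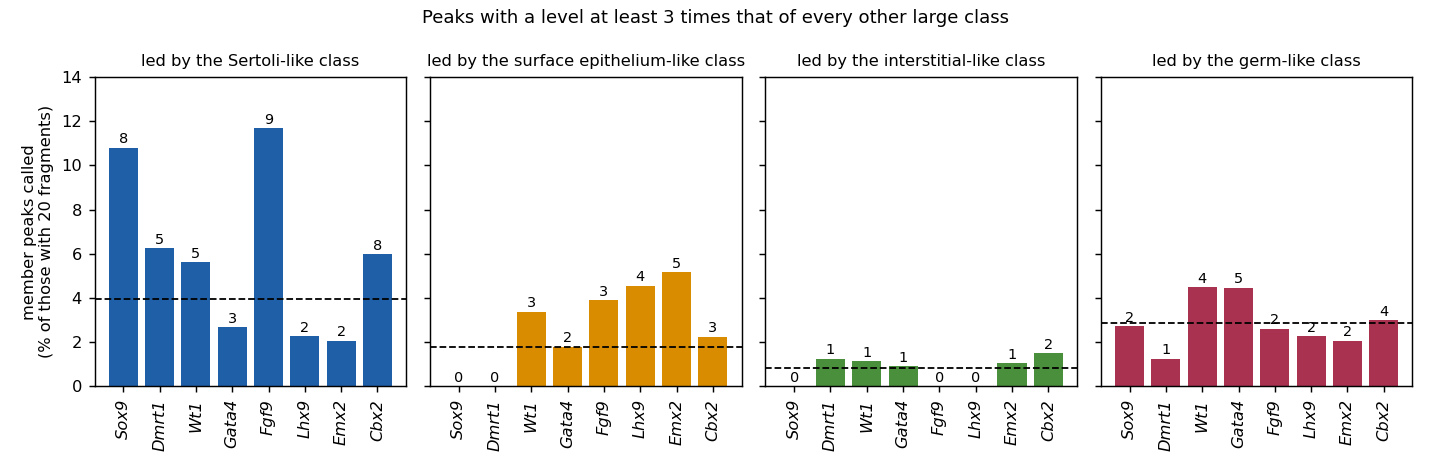
Share of the member peaks with at least 20 fragments (percent, vertical axis) led by each of the 4 large classes, by locus (horizontal axis). The dashed line in each panel is the share of all peaks of the series, 3.93% for Sertoli-like, 1.76% for surface epithelium-like, 0.825% for interstitial-like and 2.87% for germ-like nuclei. The Sox9 and Fgf9 bars stand highest in the Sertoli-like panel.

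In the direct comparison of Sertoli-like with interstitial-like nuclei the Fgf9 and Sox9 windows had the highest shares, with 19.5% and 18.9% of their members higher in Sertoli-like nuclei. Every Sertoli-led member passes this comparison by construction, so its ranking of windows is not independent of the one by leads. The Sertoli-like level was at least 3 times the interstitial-like level at 104 members (13.8%), against 10.4% of all peaks, and the reverse held at 53 members (7.06%), against 7.29%. Around Sox9 14 members were higher in Sertoli-like and 3 in interstitial-like nuclei, around Dmrt1 12 and 3 and around Fgf9 15 and 4. The Lhx9 window was the only 1 of the 8 in which the interstitial-like side was larger, with 13 members (14.8%) higher in interstitial-like and 6 (6.82%) in Sertoli-like nuclei, and the Emx2 window was nearly even, with 10 and 11.

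Summed over all peaks of a window, the differences between classes were small. The Sox9 window had a summed level of 587 in Sertoli-like, 393 in interstitial-like, 362 in surface epithelium-like and 307 in germ-like nuclei. Its Sertoli-like level was thus 1.49 times the interstitial-like level (1.38 to 1.61). The ratio was 1.26 for Fgf9 (1.18 to 1.34), 1.21 for Dmrt1 (1.13 to 1.30), 1.15 for Wt1, 1.12 for Gata4 and 1.10 for Cbx2. It lay below 1 for Emx2, at 0.879 (0.824 to 0.937), and for Lhx9, at 0.760 (0.708 to 0.816). With all fragments of the class as the denominator, in place of fragments at peaks, the Gata4 and Cbx2 ratios moved to 0.9999 and 0.988. The ratio over all 779 members was 1.09 and moved to 0.979 in the same way, so no direction is read from these 3. The change lowers every window ratio by the same factor, since 36.1% of fragments in Sertoli-like and 40.3% in interstitial-like nuclei lay at peaks. It brings the Wt1 ratio, whose interval was 1.09 to 1.22, close to 1, so its direction is not read either. The median log2 ratio of Sertoli-like to interstitial-like levels, with 1 added to each level, was -0.03 over the members and -0.09 over all peaks.

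Led members lay mostly away from gene starts, as led peaks did throughout the series. In all, 90 members (12.0%) were led by a class, against 9.40% of all peaks. Of the 7 members within 1 kb of the lowest start of the 8 genes none was led by any class, nor were the peaks within 1 kb of the other annotated starts. Beyond 1 kb and within 50 kb 14 of 86 members were led (16.3%), beyond that and within 250 kb 34 of 239 (14.2%), and out to 750 kb 42 of 419 (10.0%), a share next to that of all peaks. Counting starts of any annotated gene, 14.4% of members and 16.2% of all peaks lay within 1 kb of a start, while 6 of the 90 led members (6.67%) and 7.08% of the led peaks of the series did, and 0 of the 42 Sertoli-led members did, against 3.55% of the Sertoli-led peaks of the series. Of the 42, 24 lay in introns and 18 between genes. Led members had much the same base composition as members at large. The median GC content was 51.5% in led members, 51.3% in all members and 50% in all peaks.

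The member with most fragments in each window was a promoter that all classes used, and outside the Sox9 window it belonged to a neighbouring gene. These peaks lay within 0.2 kb of the starts of Wdfy2 in the Gata4 window, Usp36 (Cbx2), Zdhhc20 (Fgf9), Cstf3 (Wt1), Pdzd8 (Emx2), Cbwd1 (Dmrt1) and Nek7 (Lhx9), with 536 to 1188 fragments over the 5 groups. The Wdfy2 peak, for example, had levels of 92.5 in Sertoli-like, 111 in surface epithelium-like, 95.3 in interstitial-like and 107 in germ-like nuclei.

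At Sox9, the Sertoli cell determinant, the promoter was led by no class, while Sertoli-like nuclei led 8 of the 74 peaks of the window with 20 fragments. Those 8 were picked by the 3-fold rule and the promoter by position, so the sizes of their differences are not compared. The peak at its start (chr11:112781669-112782545) had levels of 24.5 in Sertoli-like, 20.3 in surface epithelium-like, 27.9 in interstitial-like and 11.2 in germ-like nuclei and of 49.0, from 7 fragments, in the Pax8 cluster. The Sertoli-like level there was 0.880 times the interstitial-like level (0.610 to 1.24), so a difference between these classes at the promoter could not be told from counting error. Sox9 RNA in contrast was at 43.7 CPM in Sertoli-like, 23.1 in the Pax8 cluster, 4.95 in surface epithelium-like, 5.61 in interstitial-like and 8.37 CPM in germ-like nuclei. The Sertoli-like RNA level was 7.79 times the interstitial-like level (6.43 to 9.49).

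Around this promoter, 8 peaks were led by Sertoli-like nuclei. The peak 67.9 kb downstream, between genes, had 61 fragments in Sertoli-like nuclei, 19 in interstitial-like, 8 in germ-like and 3 each in surface epithelium-like nuclei and the Pax8 cluster. Its Sertoli-like level of 37.4 was 13.4 times the interstitial-like level of 2.79 (7.91 to 23.8) and 11.7 times the germ-like level, the next highest. All 3 other large classes lay close together, between 2.79 and 3.20. The lead held under all 13 alternatives of the analysis, with folds over the next class from 7.73 to 12.2. Among these, a fold of 2 and a minimum of 10 fragments could not have removed it.

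The peak 11.5 kb upstream (chr11:112770298-112771064), in an intron of the long noncoding RNA gene BC006965, had 45 fragments in Sertoli-like, 10 in interstitial-like and 7 in germ-like nuclei and none in surface epithelium-like nuclei or the Pax8 cluster. Its level of 27.6 in Sertoli-like nuclei was 18.8 times the interstitial-like level (9.35 to 41.9) and 9.04 times that of surface epithelium-like nuclei when their 0 fragments are set to the floor of 3, and the lower limit of the counting interval of the ratio, with 0 fragments kept, was 7.05. A neighbouring peak 9.1 kb upstream was less selective, with levels of 25.7 in Sertoli-like, 10.2 in surface epithelium-like, 7.48 in interstitial-like and 4.0 in germ-like nuclei and of 28.0, from 4 fragments, in the Pax8 cluster. It was chosen for its position after its values were seen. BC006965 itself had 35.9 CPM of RNA in Sertoli-like nuclei, 17.6 CPM in the Pax8 cluster and 0.883 to 2.92 CPM in the other 3 classes.

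Downstream of Sox9, 2 Sertoli-led peaks lay on either side of the start of the noncoding gene 2610035D17Rik. The peak 384.5 kb downstream (chr11:113166348-113167164), in an intron of that gene, had 44 fragments and a level of 27.0 in Sertoli-like nuclei against 3.22 in interstitial-like nuclei, a ratio of 8.36 (4.91 to 14.7). The peak 441.9 kb downstream (chr11:113223692-113224612), between genes, had 54 fragments and a level of 33.1 in Sertoli-like nuclei, 28.0 from 4 fragments in the Pax8 cluster, 4.40 in interstitial-like, 4.07 in surface epithelium-like and 0.400, from 1 fragment, in germ-like nuclei. The RNA of 2610035D17Rik stood at 495 CPM in Sertoli-like nuclei and 410 CPM in the Pax8 cluster, against 46.1 CPM in interstitial-like, 67.7 CPM in surface epithelium-like and 102 CPM in germ-like nuclei. Its RNA and these peaks were thus high in the same class, from 1 library and with no test of a link.

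The other 4 Sertoli-led peaks of the window were shallower. The peak 564.7 kb upstream had 25 fragments in Sertoli-like and 2 in interstitial-like nuclei, levels of 15.3 and 0.293, and the peak 436.2 kb upstream had 26 and 23, levels of 15.9 and 3.37. The peak 729.0 kb downstream, in an intron of the zinc transporter gene Slc39a11, had 25 fragments in Sertoli-like and 5 in interstitial-like nuclei, levels of 15.3 and 0.733. The peak 20.9 kb downstream had 17 and 13, levels of 10.4 and 1.91, with no fragment in surface epithelium-like nuclei, whose floor of 3 fragments gives a fold of 3.41, and the lower limit of the counting interval with 0 fragments kept was 2.49. That lead was lost under 7 of 13 alternatives, and stood between 2.34 and 2.91 under 4 of them.

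Germ-like nuclei led 2 peaks of the Sox9 window. The peak 730.2 kb downstream had 42 fragments in germ-like nuclei and 3, 1, 0 and 5 in Sertoli-like nuclei, the Pax8 cluster, surface epithelium-like and interstitial-like nuclei, with a germ-like level of 16.8. It lay next to the Sertoli-led peak at 729.0 kb, also in an intron of Slc39a11, so that neighbouring peaks were led by different classes. The other was 88.4 kb downstream, with 29 germ-like fragments and a level of 11.6.

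**Figure D2:**
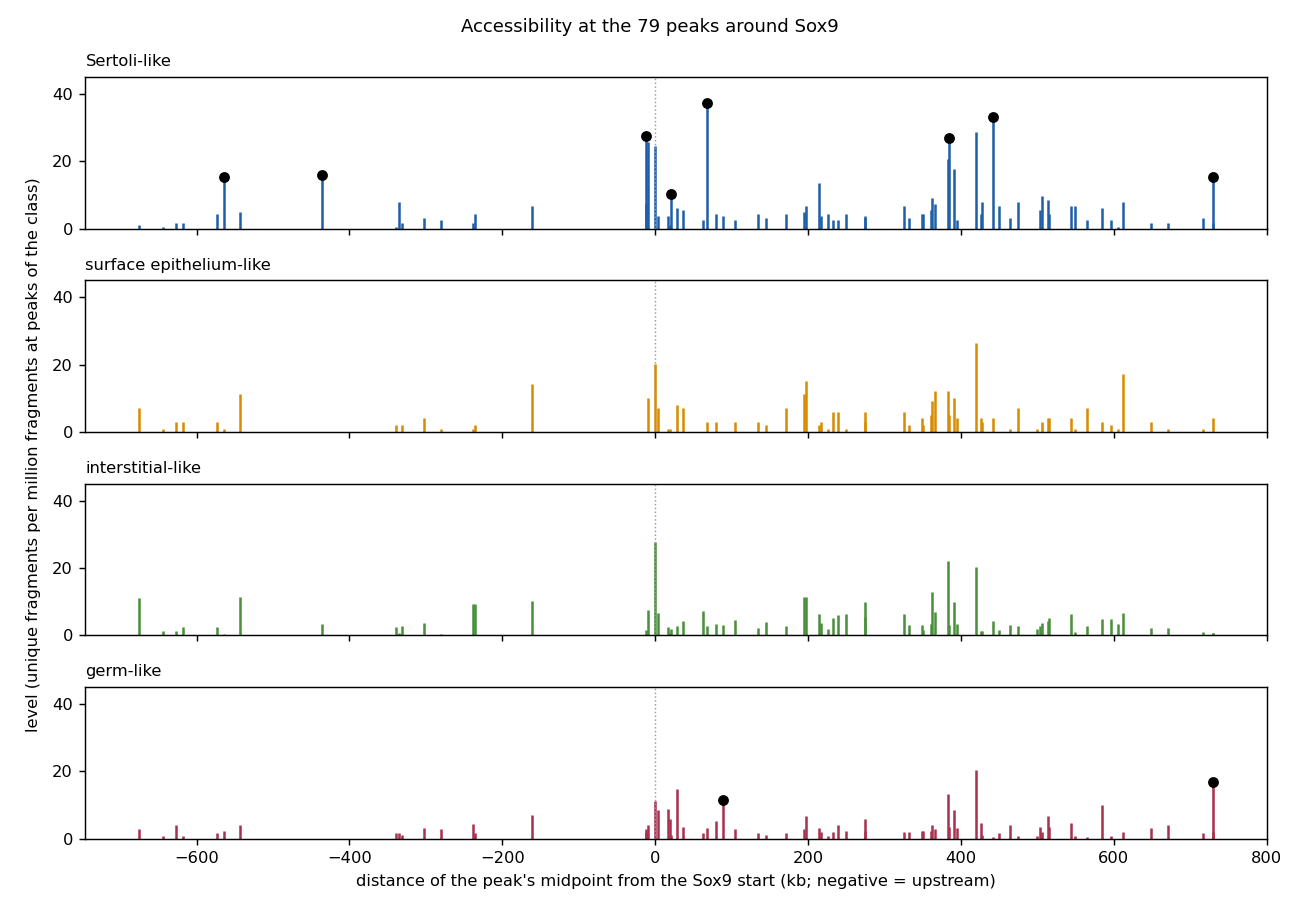
Level of each of the 79 peaks around Sox9 (fragments per 1000000 at peaks of the class, vertical axis) against its distance from the Sox9 start (kb, horizontal axis, negative upstream), with a panel for each of the 4 large classes. Black dots mark peaks led by that class. The Sertoli-like panel has 8 dots, the tallest at 37.4 and 67.9 kb downstream, while the peak at the start reaches 24.5 in Sertoli-like and 27.9 in interstitial-like nuclei.

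Dmrt1, which encodes a DM-domain transcription factor of Sertoli and germ cells, was open at its start in the classes with its RNA. The start peak (chr19:25505206-25506062) had levels of 28.4 in germ-like and 20.8 in Sertoli-like nuclei, 8.80 in interstitial-like, 6.10 in surface epithelium-like nuclei and 21, from 3 fragments, in the Pax8 cluster. Both classes were higher than interstitial-like nuclei beyond counting error, 3.23 times in germ-like (2.26 to 4.63) and 2.37 times in Sertoli-like nuclei (1.51 to 3.67). Dmrt1 RNA was at 258 CPM in Sertoli-like and 173 CPM in germ-like nuclei, 27.5 CPM in the Pax8 cluster, 3.36 CPM in surface epithelium-like and 1.94 CPM in interstitial-like nuclei.

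Upstream of the start, which was open in Sertoli-like and germ-like nuclei, lay a peak led by each of them. The peak 8.1 kb upstream (chr19:25496989-25498015) had 31 fragments in Sertoli-like nuclei, 7 in interstitial-like, 6 in germ-like, 4 in the Pax8 cluster and 2 in surface epithelium-like nuclei. Its Sertoli-like level was 19.0 and its germ-like level 2.40. The peak 16.8 kb upstream (chr19:25488484-25489183) showed the opposite, with 39 fragments in germ-like nuclei, 4 in Sertoli-like, 3 in interstitial-like and 1 in surface epithelium-like nuclei, levels of 15.6, 2.45, 0.440 and 1.02. At a cluster resolution of 0.6, at which a germ cluster of 529 nuclei received no name and left 448 germ-like nuclei, its fold over the next class went from 5.11 to 1.34 and the call was lost.

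A further 3 Sertoli-led peaks lay in introns of Dmrt1, named after their values were seen. They stood 9.6, 23.9 and 31.7 kb past the start, with Sertoli-like levels of 24.5, 15.3 and 24.5, interstitial-like levels of 1.17, 2.49 and 5.42 and germ-like levels of 6.40, 2.80 and 6.40. At the far edge of the window, in introns of the phosphoglucomutase-like gene Pgm5, a Sertoli-led peak (716.8 kb upstream, level 9.81) and an interstitial-led peak (721.6 kb upstream, level 18.6 against 2.45 in Sertoli-like nuclei) lay close together. Pgm5 RNA was at 47.0 CPM in interstitial-like nuclei, 26.1 CPM in surface epithelium-like and 6.79 to 8.84 CPM in the other 3 groups.

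In the window of Fgf9, the secreted growth factor, Sertoli-led peaks lay on both sides of the gene and all epithelium-led peaks lay downstream. Fgf9 RNA was highest in the Pax8 cluster, at 186 CPM, and in surface epithelium-like nuclei, at 140 CPM. It was at 27.9 CPM in Sertoli-like, 5.55 CPM in germ-like and 1.41 CPM in interstitial-like nuclei. The Sertoli-like level was 19.7 times the interstitial-like level (13.9 to 28.9), and 33.5 times with nuclei removed at the automatic doublet threshold. No peak lay within 1 kb of the lowest start, and the nearest peak to the highest annotated start, which lay within 1 kb of that start without covering it and 5.9 kb past the lowest, had levels of 21.2 in germ-like, 19.0 in Sertoli-like, 10.2 in surface epithelium-like and 4.84 in interstitial-like nuclei. The germ-like level at that peak was 4.38 times the interstitial-like level (2.79 to 6.99), although Fgf9 RNA in germ-like nuclei was low.

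The epithelium-led peaks of this window, all 3 between genes, lay close together downstream of Fgf9. The peak 215.9 kb downstream had 30 fragments and a level of 30.5 in surface epithelium-like nuclei against 5.57 in interstitial-like and 1.23 in Sertoli-like nuclei. The peak 230.1 kb downstream (chr14:58300209-58301119), 0.309 kb from the start of the noncoding gene Gm33321, had levels of 54.9 in surface epithelium-like nuclei, 42 from 6 fragments in the Pax8 cluster, 13.3 in interstitial-like, 11 in Sertoli-like and 4.0 in germ-like nuclei. The third peak, 204.0 kb downstream, had 13.2 in surface epithelium-like nuclei and 21, from 3 fragments, in the Pax8 cluster. Gm33321 RNA was at 67.7 CPM in surface epithelium-like nuclei and 31.9 CPM in the Pax8 cluster and under 2 CPM in the other 3 classes. The peaks at 204.0 and 230.1 kb and this gene were named after their values were seen.

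The 9 Sertoli-led peaks of the Fgf9 window were spread from 720.3 kb upstream to 527.4 kb downstream. The farthest downstream (chr14:58597439-58598434) lay between genes and had 43 fragments in Sertoli-like nuclei, 4 each in interstitial-like and germ-like nuclei and 1 each in surface epithelium-like nuclei and the Pax8 cluster. Its Sertoli-like level was 26.4, 44.9 times the interstitial-like level (16.3 to 172). Of the other 8, 6 lay upstream in introns of neighbouring genes, 3 of them in Zdhhc20, 2 in Cryl1 and 1 in Lats2, and 2 lay downstream between genes. Cryl1 RNA was at 152 CPM in Sertoli-like nuclei, 177 CPM in the Pax8 cluster and 18.2 to 52.3 CPM in the other 3 large classes. Zdhhc20 RNA was highest in germ-like and Lats2 RNA in surface epithelium-like nuclei. Cryl1 and Lats2 RNA were looked up after the peaks were seen, and which gene these peaks act on was not tested. Germ-like nuclei led a peak in an intron of the nuclear export gene Xpo4, 413.9 kb upstream, with 40 of its 46 fragments and a level of 16.

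Wt1, the zinc finger gene of the coelomic epithelium, gonad and Sertoli cells, was more open at its lowest start in surface epithelium-like and Sertoli-like nuclei, which had the most of its RNA. The start peak (chr2:105126137-105127001) had levels of 69.2 in surface epithelium-like, 66.8 in Sertoli-like, 32.8 in germ-like and 31.4 in interstitial-like nuclei and 70.0, from 10 fragments, in the Pax8 cluster. The ratio to interstitial-like nuclei was 2.21 in surface epithelium-like (1.65 to 2.91) and 2.13 in Sertoli-like nuclei (1.68 to 2.69). Wt1 RNA followed the same split, with 999.4 CPM in surface epithelium-like, 744 CPM in Sertoli-like nuclei and 645 CPM in the Pax8 cluster against 143 CPM in interstitial-like and 93.0 CPM in germ-like nuclei. The peak at the other annotated start, 4.1 kb further on, showed the split for Sertoli-like but not for surface epithelium-like nuclei, with levels of 49.0 in Sertoli-like, 17.3 in surface epithelium-like, 18.6 in interstitial-like and 15.6 in germ-like nuclei and 35.0, from 5 fragments, in the Pax8 cluster. There the ratio to interstitial-like nuclei was 2.63 in Sertoli-like (1.97 to 3.51) and 0.929 in surface epithelium-like nuclei (0.525 to 1.55). The overlapping antisense gene Wt1os had 663, 318, 388, 93.8 and 55.9 CPM in surface epithelium-like, Sertoli-like nuclei, the Pax8 cluster, interstitial-like and germ-like nuclei. Reads were assigned to genes by Cell Ranger ARC with its default options, and whether any reads were shared between the gene and its antisense partner was not tested.

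Among the other peaks of the window, Sertoli-like nuclei led 5 and surface epithelium-like nuclei led 3. The peak 17.5 kb upstream, in an intron of Wt1os and named after its values were seen, had 67 fragments and a level of 41.1 in Sertoli-like, 9.20 in germ-like, 8.14 in surface epithelium-like and 4.54 in interstitial-like nuclei. The peak 114.3 kb downstream, in an intron of Them7, had 26 fragments in Sertoli-like, 8 in interstitial-like, 4 in germ-like, 3 in the Pax8 cluster and 1 in surface epithelium-like nuclei, a Sertoli-like level of 15.9. The epithelium-led peak 28.9 kb upstream had 19 fragments and a level of 19.3 in surface epithelium-like nuclei against 2.45 in Sertoli-like, 2.64 in interstitial-like and 3.6 in germ-like nuclei. Another, in an intron of Wt1 itself 7.9 kb past the start, had 42.7 in surface epithelium-like and 13.5 in Sertoli-like nuclei. It too was named after its values were seen.

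Other led peaks of the Wt1 window sat at neighbouring genes. The germ-led peak 240.3 kb upstream had 43 of its 47 fragments in germ-like nuclei, a level of 17.2, and lay 0.141 kb from the start of Ccdc73, whose RNA was at 229 CPM in germ-like nuclei and 11 to 17.0 CPM in the others. The interstitial-led peak 733.5 kb upstream had 134 fragments and a level of 19.6 in interstitial-like nuclei against 4.29 in Sertoli-like nuclei.

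Gata4, a zinc finger gene expressed across the somatic gonad, had a start that differed little between classes. No peak lay within 1 kb of the lowest start, and the peak at the other annotated start, 31.8 kb upstream of it, had levels of 35.3 in interstitial-like, 30.03 in Sertoli-like, 28.0 in germ-like and 23.4 in surface epithelium-like nuclei. The ratio of Sertoli-like to interstitial-like nuclei was 0.850 (0.612 to 1.16). Gata4 RNA was at 1355 CPM in Sertoli-like nuclei, 612 to 715 CPM in surface epithelium-like, interstitial-like nuclei and the Pax8 cluster and 207 CPM in germ-like nuclei. As with Sox9, the promoter of a gene with more RNA in Sertoli-like nuclei was not more open there beyond counting error.

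The distal peaks of Gata4 showed class differences in both directions. The peak 145.7 kb downstream had 63 fragments and a level of 38.6 in Sertoli-like nuclei against 4.10 in interstitial-like, 5.09 in surface epithelium-like and 6.80 in germ-like nuclei. Leydig-like nuclei, outside the 5 groups, reached 24.7 at this peak, so it was not particular to Sertoli-like nuclei. The peak 93.4 kb upstream (chr14:63306623-63307474) was led by interstitial-like nuclei, with 272 fragments and a level of 39.9 against 12.2 in surface epithelium-like, 10.0 in germ-like and 7.97 in Sertoli-like nuclei. At a cluster resolution of 0.6 its fold of 3.27 went to 2.67. Further upstream, the peak at 133.4 kb had 21.4 in surface epithelium-like nuclei, 6.01 in interstitial-like and 5.52 in Sertoli-like nuclei, and a germ-led peak lay at the start of Tdh, 295.2 kb upstream, with a level of 12.8.

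Lhx9, a LIM homeobox gene needed to form the gonad, was less open in Sertoli-like than in interstitial-like nuclei, at its lowest start as over its window. The start peak (chr1:138842090-138842955) had levels of 19.3 in interstitial-like, 16.3 in surface epithelium-like, 8.40 in germ-like and 6.13 in Sertoli-like nuclei and no fragment in the Pax8 cluster. The Sertoli-like level was 0.317 times the interstitial-like level (0.148 to 0.601). Lhx9 RNA was at 290 CPM in surface epithelium-like and 260 CPM in interstitial-like nuclei and at 34.1 to 41.3 CPM in the Pax8 cluster, Sertoli-like and germ-like nuclei, 0.147 times as high in Sertoli-like as in interstitial-like nuclei. At the peak over the other annotated start, 6.4 kb upstream, the levels were 20.3 in surface epithelium-like and 9.81 in Sertoli-like and 9.09 in interstitial-like nuclei.

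A pair of neighbouring peaks 390.4 and 392.6 kb upstream of Lhx9, named after their values were seen, had levels of 31.4 and 53.4 in interstitial-like against 6.13 and 9.19 in Sertoli-like nuclei. Neither was led by interstitial-like nuclei, since surface epithelium-like nuclei reached 16.3 and 23.4, and mesonephric mesenchyme-like nuclei outside the 5 groups reached 46.9 and 61.4. Surface epithelium-like nuclei led 4 peaks of the window, with the largest fold 117.6 kb downstream, where 10 of 21 fragments gave a level of 10.2. That call rests on few fragments and was lost under 6 of 13 alternatives, each time through the minimum number of fragments. The Sertoli-led peak with the largest fold lay 74.4 kb downstream, with 27 fragments and a level of 16.5, and the germ-led one 176.1 kb downstream, with 31 fragments and a level of 12.4.

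Emx2, a homeobox gene of the coelomic epithelium, was open at its start in all classes, and some distal peaks of its window were led by a class. The start peak (chr19:59458115-59459026) had levels of 40.7 in surface epithelium-like, 32.5 in interstitial-like, 27.0 in Sertoli-like and 20.8 in germ-like nuclei and 42, from 6 fragments, in the Pax8 cluster. Emx2 RNA was at 99.3 CPM in surface epithelium-like nuclei, 52.8 CPM in the Pax8 cluster, 19.9 CPM in interstitial-like, 12.6 CPM in Sertoli-like and 5.74 CPM in germ-like nuclei. The ratio of Sertoli-like to interstitial-like RNA was 0.632, but 1.04 with no nuclei removed as doublets, so its direction is not read. In that setting the interstitial-like class itself changed, from 3366 to 2653 nuclei. The antisense gene Emx2os and the noncoding gene E330013P04Rik, 686 kb downstream, were also highest in surface epithelium-like nuclei and the Pax8 cluster. The values there were 284 and 206 CPM for Emx2os and 258 and 285 CPM for E330013P04Rik. In the other 3 classes both genes stood at 10.7 to 66.7 CPM.

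Surface epithelium-like nuclei led 5 of the 97 members around Emx2 with 20 fragments (5.15%), against 1.76% of all peaks. This was the most of any window, but with 4 of 88 around Lhx9 the counts are too close to rank the windows. The peak 453.5 kb downstream (chr19:59911328-59912384) had 20 of its 29 fragments in surface epithelium-like nuclei, 5 in interstitial-like, 3 in germ-like and 1 in Sertoli-like nuclei, with a level of 20.3 in surface epithelium-like and 0.613 in Sertoli-like nuclei. Its fold of 11.1 over the next class, with the denominator set to 3 fragments, was the largest among the 20 epithelium-led members. Nearer the gene, interstitial-like nuclei led the peak 30.7 kb downstream, with 196 fragments and a level of 28.7 against 9.19 in Sertoli-like, 6.10 in surface epithelium-like and 5.60 in germ-like nuclei. Its fold of 3.13 went to 2.82 under stricter filters on nuclei and to 2.89 with the 4 large classes thinned to the fragments at peaks of the smallest. The Sertoli-led peak with the largest fold lay 655.4 kb downstream, 30.9 kb from the start of E330013P04Rik, with 38 fragments and a level of 23.3, and the germ-led one 304.1 kb upstream, with 33 of 36 fragments and a level of 13.2.

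Cbx2, which encodes a polycomb subunit, lay in the window with the most peaks. Its start peak had levels of 52.9 in surface epithelium-like, 49.6 in germ-like, 43.5 in interstitial-like and 38.0 in Sertoli-like nuclei. Its RNA was low in the 4 large classes, from 4.11 CPM in germ-like (3.29 to 5.08) to 6.89 CPM in surface epithelium-like nuclei (4.90 to 9.42). The Pax8 cluster had no UMI, and a floor of 3 UMIs there is 3.30 CPM. The RNA ratio of Sertoli-like to interstitial-like nuclei was 1.18 (0.841 to 1.63). No difference in Cbx2 RNA between these 2 classes was therefore detectable at this depth. Sertoli-like nuclei led 8 of 134 members around it (5.97%), a share next to the 5.59% over all members.

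The Sertoli-led peak with the largest fold around Cbx2 lay 37.3 kb upstream (chr11:118985252-118986150), between genes and 2.49 kb from the start of Enpp7. It had 41 fragments in Sertoli-like nuclei, 7 each in interstitial-like and germ-like nuclei, 1 in the Pax8 cluster and none in surface epithelium-like nuclei, a Sertoli-like level of 25.1 and a ratio of 24.5 to interstitial-like nuclei (10.9 to 64.7). Enpp7 had 1 UMI in all 5 groups together. The 7 others were spread from 314.6 kb upstream to 359.0 kb downstream. In the same window Rnf213, a large ubiquitin ligase gene, had 271 CPM in Sertoli-like and 207 CPM in the Pax8 cluster, 113 CPM in surface epithelium-like, 122 CPM in germ-like and 29.2 CPM in interstitial-like nuclei.

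The Cbx2 window also held peaks led by the other 3 large classes. The interstitial-led peak 680.1 kb upstream lay in an intron of Timp2, a metalloproteinase inhibitor gene, and 0.361 kb from a start of Cep295nl. It had 91 fragments and a level of 13.3, against 4.07, from 4 fragments, in surface epithelium-like nuclei. Timp2 RNA was at 73.5 CPM in interstitial-like and 99.99 CPM in surface epithelium-like nuclei against 25 CPM in Sertoli-like nuclei. The class with most Timp2 RNA was thus not the class that led the peak. The germ-led peak with the largest fold lay 123.3 kb downstream, in an exon of Tbc1d16, with 42 fragments and a level of 16.8. The epithelium-led peak with the largest fold, 217.7 kb upstream, had 8 fragments and a level of 8.14 and was lost under 6 of 13 alternatives.

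**Figure D3:**
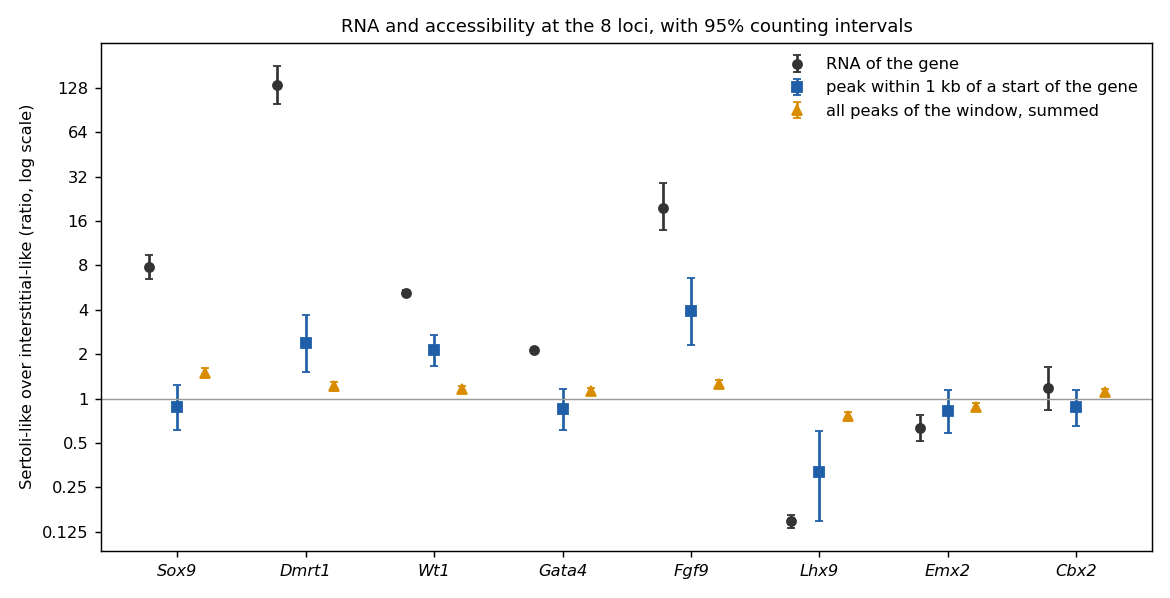
Ratio of Sertoli-like to interstitial-like nuclei at each locus (vertical axis, log scale) for the RNA of the gene, the peak within 1 kb of its start (for Fgf9, a peak that does not cover the start) and the summed accessibility of its window, with 95% counting intervals as bars. RNA ratios run from 0.147 for Lhx9 to 133 for Dmrt1, start peak ratios from 0.317 for Lhx9 to 3.93 for Fgf9, and window ratios from 0.760 to 1.49.

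Across the 8 loci, the RNA and start peak values can be set side by side. The RNA of Sox9, Dmrt1, Wt1, Gata4 and Fgf9 was higher in Sertoli-like than in interstitial-like nuclei with intervals above 1. Of these 5, the start peak ratio was above 1 with its interval for Dmrt1 (2.37), Wt1 (2.13) and Fgf9 (3.93, at a peak beside the start) and not for Sox9 (0.880) and Gata4 (0.850). Lhx9 was below 1 in both readouts. Under the 7 alternatives that recount these peaks, each start peak ratio stayed within its counting error. The ratio at the second Lhx9 start, 1.08 (0.581 to 1.89), cannot be told from 1.

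**Figure D4:**
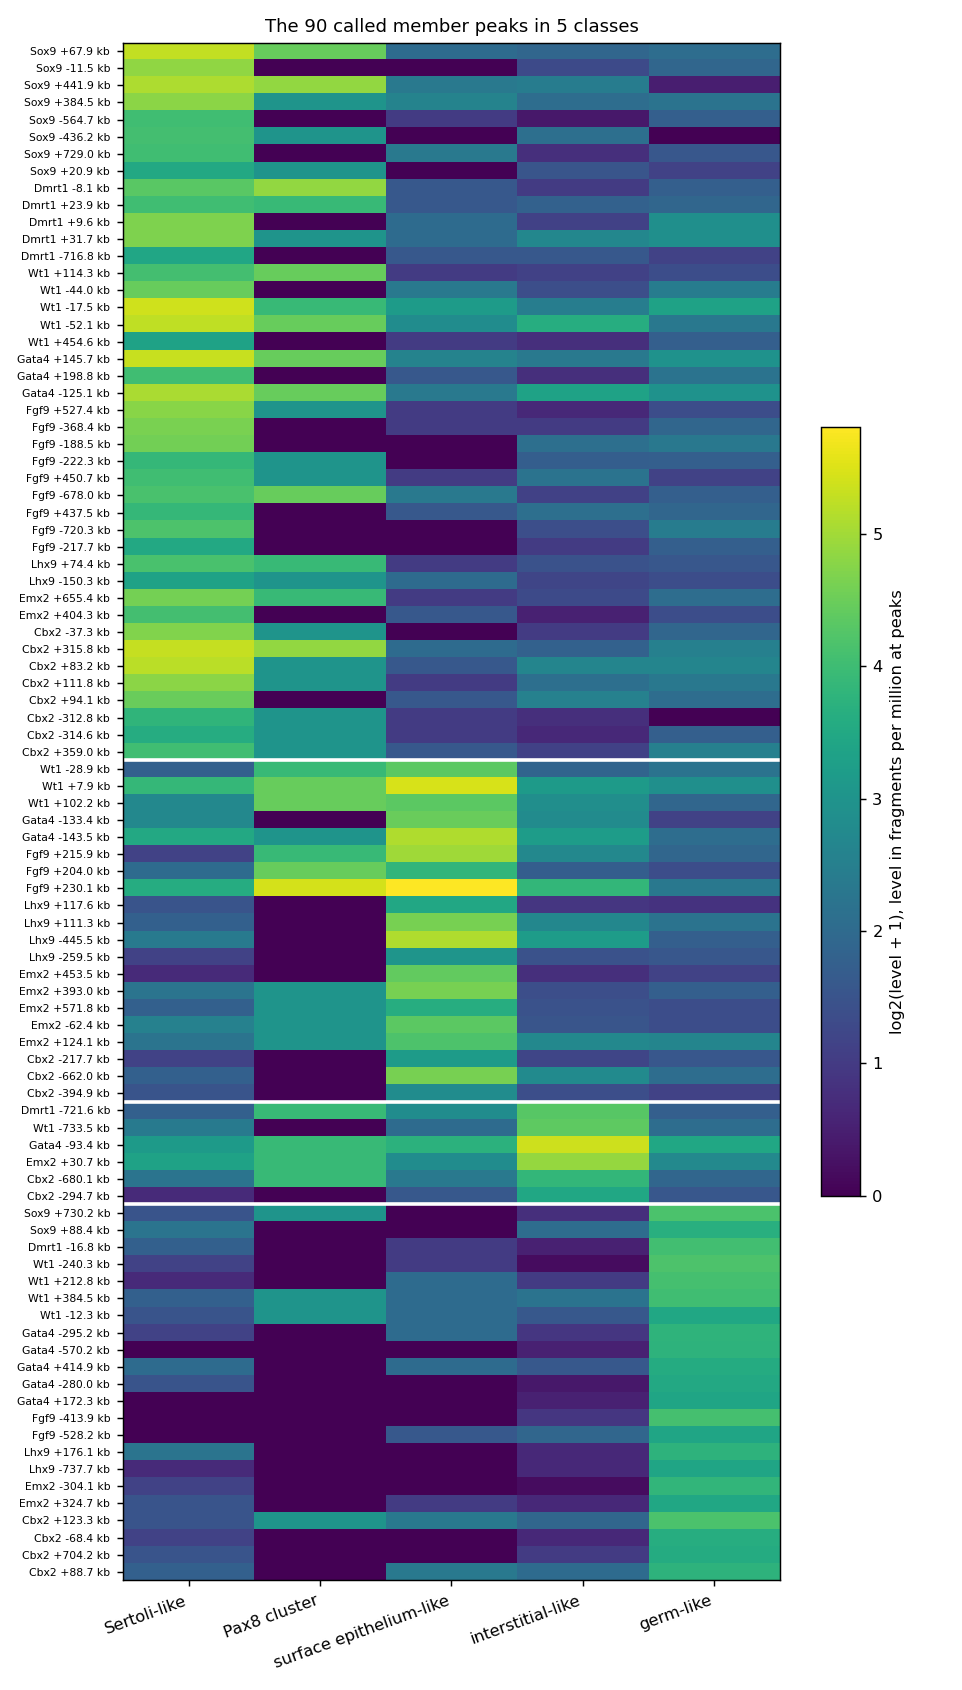
Levels of the 90 led members (rows, in blocks by leading class and named by locus and distance in kb) in Sertoli-like nuclei, the Pax8 cluster, surface epithelium-like, interstitial-like and germ-like nuclei (columns), as log2 of the level plus 1. Each block of rows is bright in its leading class by construction, and the Pax8 column is patchy because 1 fragment there is worth a level of 7.0.

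Most of the other genes with much RNA in each window were expressed in every class. Those not yet described were Kank1 and Cbwd1 around Dmrt1, Cstf3 around Wt1, Ints6, Xkr6 and Wdfy2 around Gata4, Zdhhc20, Xpo4 and Micu2 around Fgf9, Dennd1b, Nek7 and Aspm around Lhx9, Rab11fip2 around Emx2, Rptor around Cbx2 and, with under 3 CPM in every group, 4732490B19Rik around Sox9. Cstf3, an RNA processing gene whose promoter was the deepest peak of the Wt1 window, had 305 CPM in Sertoli-like, 284 CPM in surface epithelium-like, 259 CPM in interstitial-like and 352 CPM in germ-like nuclei. Ints6, which encodes an Integrator subunit, had 537 CPM in germ-like and 280 to 351 CPM in the other 3 large classes, and Zdhhc20, a palmitoyltransferase gene, had 424 CPM in germ-like and 191 to 261 CPM in the others. Xkr6 was at 219 CPM in germ-like and 76.3 to 87.6 CPM in the other large classes. Next to Lhx9, Dennd1b had 378 CPM in Sertoli-like and 206 CPM in germ-like nuclei, and Nek7, a kinase gene, had 299 CPM in surface epithelium-like and 127 to 187 CPM in the other large classes.

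A further pair of patterns across classes were defined after the data had been seen. All 3 somatic large classes were at least 3 times the germ-like level at 9 members (1.20%), against 1.18% of all peaks. They lay around Sox9 (3, at 325.6, 441.9 and 611.7 kb downstream), Gata4 (3, at 58.2, 133.4 and 149.5 kb upstream), Cbx2, Dmrt1 and Emx2 (1 each). Surface epithelium-like and interstitial-like nuclei were each at least 3 times both the Sertoli-like and the germ-like level at 6 members (0.799%), against 0.902% of all peaks. Of these, 2 lay 93.9 and 125.1 kb upstream of Lhx9, 2 lay 34.6 and 663.0 kb downstream of Emx2, and 1 each lay 429.1 kb downstream of Fgf9 and 390.1 kb downstream of Wt1. Both shares lay close to the background.

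The SOX, GATA and NR5A1 motifs stood in a larger share of Sertoli-led members than of all members, as they did among the Sertoli-led peaks of the whole series. The NR5A1 motif CAAGGTCA stood in 12 of the 42 Sertoli-led windows (28.6%), in 6.80% of all members and 6.18% of all peaks, and in 21.2% of all Sertoli-led peaks. The SOX motif ACAAAG stood in 42.9% of Sertoli-led members, 21.1% of members, 22.0% of all peaks and 37.4% of all Sertoli-led peaks, and ACAATG in 23.8%, 12.5%, 12.6% and 25.6%. The GATA motif AGATAA stood in 33.3% of Sertoli-led and 45% of epithelium-led members, which is 9 of 20, in 17.97% of members and in 17.3% of all peaks. Germ-led members held CAAGGTCA in 1 of 22 windows, against 1.83% of all germ-led peaks, AGATAA in 4 of 22 (18.2%), against 8.12%, and ACAATG in 5 of 22 (22.7%), against 13.2%.

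The homeobox motif TAATTA stood in 3 of the 20 epithelium-led members (15.0%), 7.70% of members and 7.62% of all peaks, and in 15.4% of all epithelium-led peaks. The DMRT1 motif TACANTGT was rare, in 1 of the 42 Sertoli-led members, 2.95% of members, 3.54% of all peaks and 6.95% of all Sertoli-led peaks. Epithelium-led members held AGATAA more often than the 24.7% of all epithelium-led peaks, and 2 of the 6 interstitial-led members held CAAGGTCA, against 7.16% of all interstitial-led peaks. The counts over members are small. Members that share a window or lie side by side are not independent of each other.

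**Figure D5:**
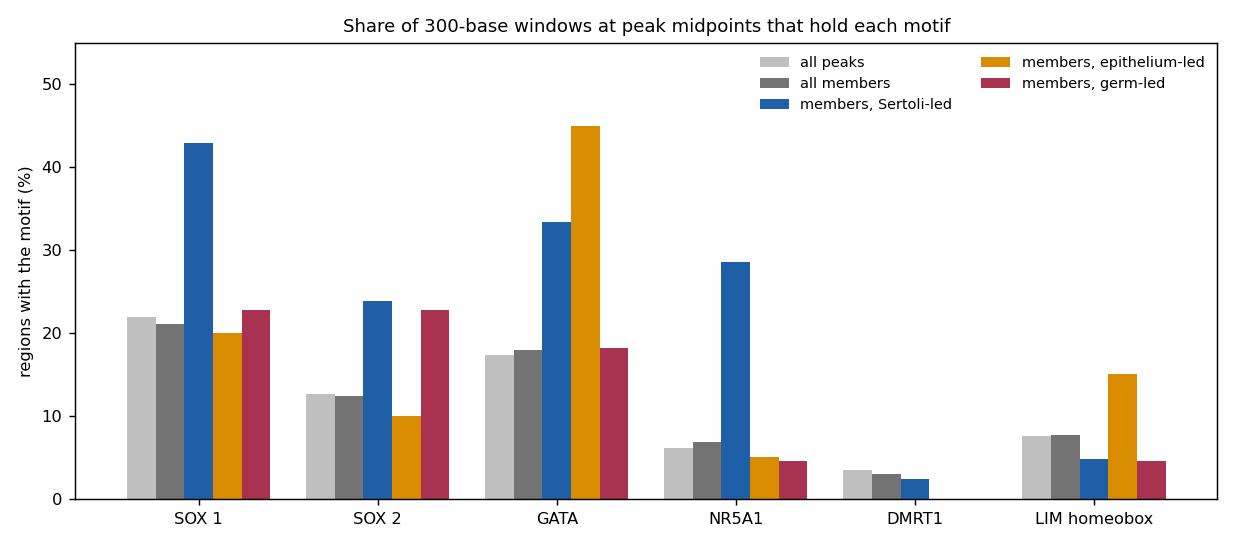
Share of 300-base windows at peak midpoints that hold each of the 6 motifs (percent, vertical axis), for all peaks, all members and the 42 Sertoli-led, 20 epithelium-led and 22 germ-led members. SOX 1 is ACAAAG and SOX 2 is ACAATG. Sertoli-led members hold CAAGGTCA in 28.6% of windows against 6.18% of all peaks.

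Other genes of sex determination outside these windows gave the setting. Of 18 genes on the testis side of the pathway, Nr5a1, Sox8, Sox10 and Dhh had RNA at least 3 times higher in Sertoli-like than in any other large class, with folds of 3.15, 22.1, 26.2 and 8.10 over the next class, and Six4 was highest in germ-like nuclei, with a fold of 4.59. In no class did 12 of the 18 pass. Dhh, Amh and Ptgds were among the markers that named the Sertoli-like class, so their RNA there was high in part by construction. Nr5a1 was a marker of the Leydig-like class, which has 778 nuclei but was kept outside the large classes and so was left out of this comparison. The Nr5a1 fold is therefore over the other large classes only. Amh, the hormone that regresses the female ducts, was at 68.8 CPM in Sertoli-like nuclei, 1.97 times the next class. Sry had no UMI in the 5 groups, and a floor of 3 UMIs is 0.295 CPM in Sertoli-like nuclei. Of 8 genes on the ovary side, Rspo1 and Fst, a WNT pathway activator and an activin antagonist, were highest in surface epithelium-like nuclei, with folds of 6.78 and 6.60, and 6 passed in no class.

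Of the start peaks found for these genes, only that of Amh was led by a class. Its levels were 44.7 in Sertoli-like, 8.80 in germ-like, 5.09 in surface epithelium-like and 3.22 in interstitial-like nuclei and 21, from 3 fragments, in the Pax8 cluster. Dhh, a ligand made by Sertoli cells, came next on the testis side, with 24.5 in Sertoli-like and 10.0 in germ-like nuclei, and for Sox8 the fold was 1.49.

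Classes outside the 5 groups led few members. Of the 103 members with 20 fragments in Leydig-like nuclei, the steroid-making cells, 4 were at least 3 times above every large class (3.11% of such peaks in the series). They lay 498.9 kb downstream of Sox9, with 28 fragments, a level of 23.8 and a fold of 7.81, 647.7 kb upstream of Emx2, with a fold of 6.48, 187.2 kb upstream of Lhx9, with a fold of 3.41, and 239.3 kb upstream of Dmrt1, with a fold of 3.33. Mesonephric mesenchyme-like nuclei led 1 of 46 (1.09% of such peaks in the series), 60.4 kb downstream of Wt1, with 21 fragments, a level of 33.9 and a fold of 8.34. Endothelial-like and immune-like nuclei had 3 and 1 members with 20 fragments and led none, and pericyte-like and erythroid-like nuclei had none that deep.

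The bound of 750 kb divides what was counted from what was not. Around Fgf9 the peak just outside, 754.8 kb away, had a Sertoli-like level of 20.8 against 1.17 in interstitial-like nuclei, while the peak just inside, 725.5 kb away, had 4.90 and 7.92. Around Cbx2 the peak just outside, 766.2 kb away, had 12.3 in Sertoli-like and 2.93 in interstitial-like nuclei, and the peak just inside was the evenly open promoter of Usp36. Around Sox9 the germ-led peak at 730.2 kb was the last inside, and the next, at 764.3 kb, had levels of 0.400 to 2.49 in the 4 large classes. Around Wt1 the interstitial-led peak at 733.5 kb was the last inside, and the next, at 758.9 kb, had 7.33 in interstitial-like and 0.613 in Sertoli-like nuclei.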

How the data were processed

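Nuclei of frozen E14.5 testes were profiled as 1 RNA and 1 ATAC library. The authors deposited a matrix of counts (unique RNA molecules per gene and transposase cuts per peak) for 9833 barcodes, which held 93.6% of the fragments, and a list of ATAC fragments, made with Cell Ranger ARC 2.0.1 on mm10. Peaks were called over all nuclei together, and 1.09 read pairs supported a fragment. No ambient RNA was removed. The study's limit on fragments in blacklisted regions of the genome was not applied. Of the 9833 barcodes, 7668 passed its other limits: more than 500 genes, 250 to 25000 fragments at peaks making up more than 20% of all, and less than 10% mitochondrial, 10% ribosomal protein and 0.5% haemoglobin UMIs. Scrublet (scanpy 1.11.5) in place of the study's doublet caller ranked them, and the top 6.13% (470) were removed, leaving 7198 with medians of 7948 UMIs and 4477 fragments. Clusters were made from RNA with Seurat 5.3.0 in R 4.3.3 (2000 variable genes without those of the windows, 30 components, resolution 0.3) and named by mean z-scores of marker lists.

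Unique fragments with a cut site in a peak were counted per class and divided by the fragments at peaks of the class. Exact 95% Poisson and binomial intervals cover counting error only. Nothing was tested between classes. Members and gene lists were chosen with earlier results of these data known. Named were, per locus, the peak at the gene start, the member with most fragments, and for each class the led member with the largest fold, for Sox9 every Sertoli-led peak, and the 3 other genes of each window with the highest CPM. Further ones are stated as chosen after their values were seen. The result of 1 gene of the sex determination lists is not reported here. Promoter sequences of RefSeq matched the genome used. The alternatives comprised 12 planned settings and 1 added after seeing the data (interstitial-like nuclei without their cycling cluster). Python 3.11.15, numpy 2.4.6, scipy 1.17.1, pandas 2.3.3, pysam 0.24.0 and matplotlib 3.10.9 were used.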

Additional observations from a re-analysis of the deposited data

How the results depend on the processing

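No paired analysis was possible because there is 1 library per assay. With 3-fold leads the Sertoli-like class led 42 members. A fold of 2 gave 81 (10.8% of members, 7.82% of all peaks), a fold of 5 gave 19 (2.53%, 1.03%) and a minimum of 50 fragments gave 26 (5.79%, 3.16%). For the surface epithelium-like class these 3 settings gave 41 (5.46%, 4.74%), 5 (0.666%, 0.433%) and 11 (2.45%, 1.01%) in place of 20. With the 4 large classes thinned to the fragments at peaks of the smallest, the Sertoli-like class led 39 of 413 (9.44%, 4.84%) and the surface epithelium-like class 16 (3.87%, 1.9%). The 6 interstitial-led members became 13 (1.67%, 1.4%) with the cut counts of the deposited matrix, 25 with a fold of 2 (3.33%, below the 4.41% of all peaks) and 0 with a fold of 5 (0.0165% of all peaks). The germ-led count of 22 became 14 with no nuclei removed as doublets, 13 at a cluster resolution of 0.6, 7 with genes of the loci allowed among the variable genes, 36 with cut counts, 12 with all fragments of the class as the denominator, 8 (of 413 members with 20 fragments) with the 4 large classes thinned to the fragments at peaks of the smallest, 52 and 5 with folds of 2 and 5, and 6 with a minimum of 50 fragments. The germ-led share of all peaks, 2.87%, moved with it, to 1.93% with no nuclei removed, 2.27% at that resolution, 1.41% with genes of the loci allowed, 4.30% with cut counts, 1.81% with all fragments, 2.50% with thinning, 6.02% and 0.653% with the folds of 2 and 5 and 2.06% with the minimum of 50. The Pax8 cluster led 4 members with cut counts (0.515%, against 0.266% of all peaks). Of the folds of named peaks, 380 kept their side of the threshold, 62 lost it and 0 turned. A fold of 2 and a minimum of 10 fragments cannot remove a lead, so their part of the 380 was fixed in advance. Most named peaks were chosen for the largest folds in these same data, so the 0 that turned says little. Among ratios of window sums and RNA, 77 stayed within counting error, 22 moved beyond it without turning, and 4 turned: the window sums of Gata4, to 0.9999, Cbx2, to 0.988, and all members, to 0.979, with all fragments as the denominator, and the Emx2 RNA ratio, to 1.04, with no nuclei removed as doublets. Class membership changed with some settings too. A cluster with the contractile list second was named mesonephric mesenchyme-like with no nuclei removed (1189 nuclei), with genes of the loci allowed (989) and under stricter filters (616). In the main setting 356 nuclei had that name. The interstitial-like class then had 2653, 2866 and 2225 nuclei in place of 3366. The causes were not tested. Among the 5 groups, depth limits the Pax8 cluster most.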
